A study of Mus musculus with 9 samples.

Results

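The NADPH oxidase subunit genes described here were 7 named genes, Ncf4, Ncf1, Cyba, Noxa1, Noxo1, Duox2 and Duoxa2, of 24505 genes in the deposited table of nascent transcription. They were picked by gene symbol, with earlier results from the same libraries in view, so their differences between cultures, and whether a fit over all genes called them, are given as a description and no p-value is printed for them. The same symbols, as the nearest-gene name, picked 11 of the 49405 deposited regions of differential H3K27me3, the histone mark that Polycomb repressive complex 2 places on silent genes. All samples were cultures of a mouse mini-gut model, which grows from intestinal epithelium, made from the duodenum. GRO-seq, which labels and sequences the RNA that engaged polymerases are making in isolated nuclei, was done on 6 libraries. Of these, 2 came from the culture named RANKL, labelled intestinal M-cell, 2 from ENRI, labelled enterocyte, and 2 from WENRC, labelled intestinal stem cell. H3K27me3 was measured in 2 RANKL libraries, which the authors pooled, and 1 WENRC library, so those values have no replicate check. The labels spell out neither the media behind ENRI and WENRC nor the strain, age or sex of the mice, and they name no genetic change. RANKL is the cytokine that turns intestinal epithelial cells into M cells, the antigen-sampling cells above lymphoid follicles.

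NADPH oxidases move electrons from NADPH across a membrane to oxygen and so release superoxide or hydrogen peroxide. In the phagocyte enzyme the membrane pair Cybb and Cyba is switched on by cytosolic proteins, among them Ncf1 and Ncf4, together with a Rac GTPase. In colon epithelium Nox1 takes the place of Cybb, and Noxo1 and Noxa1 serve as its cytosolic organizer and activator. Duox2 is a peroxide-making oxidase of mucosal surfaces, and Duoxa2 is the factor that matures it and carries it to the cell surface.

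The GRO-seq values were deposited on a log2 scale, normalized between libraries by the authors, and low values on this scale were drawn together, so that differences of weakly transcribed genes are understated. Read depth is unknown, because no counts were used here. Genes with at least 2 libraries at or above 3.322, the log2 of 10, entered a limma fit of all 6 libraries with Benjamini-Hochberg adjustment, and those with an adjusted p under 0.05 were called. This left 16563 genes and 6 of the 7 subunit genes, with Duoxa2 under the filter. Each SE given below is from this fit, which shares its estimate of spread over all 6 libraries and between genes. A gene thus has the same SE in every comparison, and it is not the spread of the compared libraries alone. Without either RANKL library, limma called few genes of the whole table in RANKL over ENRI. It called none in RANKL over WENRC or in WENRC over ENRI, so a call lost in those fits was lost for most called genes. Of the M cell markers, 8 of 8 were higher in RANKL than in ENRI and 7 of 8 higher than in WENRC. Of the enterocyte markers, 6 of 8 were lower in WENRC than in ENRI, and 7 of 8 stem cell markers were higher in WENRC. In RANKL, 3 of 8 enterocyte markers were lower than in ENRI, 5 of 8 enterocyte markers were also higher than in WENRC and 5 of 8 stem cell markers higher than in ENRI. Against WENRC, 1 of the 8 stem cell markers was called higher in RANKL, 1 lower and 6 were not called. Per the file headers, the RANKL columns hold combined reads of a resequencing that the other columns do not name, so run and culture cannot be told apart there. The 2 RANKL libraries also differed least from each other: the SD of the replicate difference over tested genes was 0.22 in RANKL, 0.70 in ENRI and 0.42 in WENRC. ENRI and WENRC libraries came in pairs from mouse 1 and mouse 2, and the labels give the RANKL libraries no mouse.

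Ncf4 (p40phox) binds the phagosome lipid phosphatidylinositol 3-phosphate and helps hold the active oxidase together. Its gene, NM_008677, lies on the plus strand of mm9 at chr15:78075241-78093010. Its log2 level was 8.39 and 8.36 in the RANKL libraries, 2.49 and 2.88 in ENRI, and 2.60 and 3.47 in WENRC. Both RANKL libraries stood far above all 4 others, while ENRI and WENRC overlapped and 3 of their 4 values lay under the filter. The log2 difference was 5.69 ± 0.32 (SE) for RANKL over ENRI, 5.34 ± 0.32 for RANKL over WENRC and 0.35 ± 0.32 for WENRC over ENRI, with n = 2 in each culture. In the authors' deposited table the same log2 changes, turned to this direction, were 12.11, 8.58 and 4.05. The ENRI and WENRC values lie in the low range where the deposited scale draws values together. Ncf4 passed the filter through its RANKL libraries and 1 WENRC library. The log2 level per kb of gene placed Ncf4 at percentile 61.8 of tested genes in RANKL, 7.4 in ENRI and 9.5 in WENRC. In bulk cultures, fewer cells of a type and less RNA per cell cannot be told apart.

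**Figure D1:**
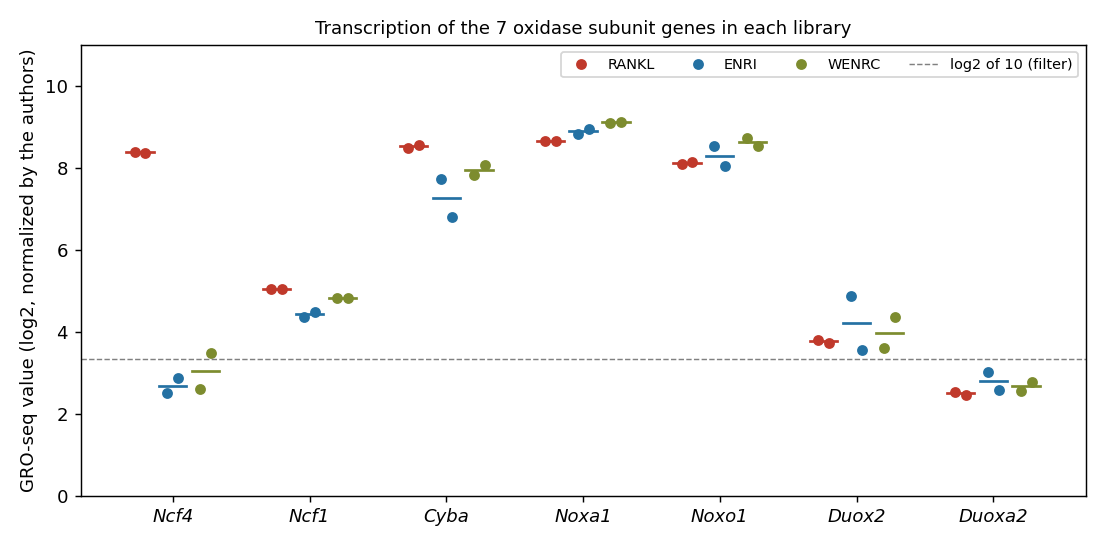
GRO-seq value (log2, normalized by the authors) of the 7 subunit genes in each of the 6 libraries, with 1 point a library, a bar at the mean of each culture and a dashed line at 3.322, the filter. Ncf4 is at 8.36 to 8.39 in RANKL and at 2.49 to 3.47 in the other 4 libraries, while Noxa1, Noxo1 and Ncf1 differ by less than 1 between culture means.

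Ncf1 (p47phox) is the organizer that tethers the cytosolic proteins to Cyba. The table lists it as NR_104383 on the minus strand of mm9 at chr5:134695923-134705495. Its log2 level was 5.03 and 5.03 in RANKL, 4.36 and 4.49 in ENRI, and 4.83 and 4.82 in WENRC. The 3 cultures did not overlap and ran RANKL, WENRC, ENRI from high to low. The log2 differences were 0.61 ± 0.17 (SE, n = 2 in each culture) for RANKL over ENRI, 0.21 ± 0.17 for RANKL over WENRC and 0.40 ± 0.17 for WENRC over ENRI. None was called, and RANKL over ENRI was called when the fit also held a mouse term for the ENRI and WENRC libraries, with the RANKL libraries given no mouse. Its neighbour Gtf2ird2, 1910 bp away, was higher by 0.998 in RANKL than in ENRI and by 0.79 in WENRC than in ENRI, and both differences were called.

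Cyba (p22phox) is the membrane partner that stabilises Nox1, Cybb and Nox4 and gives the organizers their docking site. The gene, NM_001301284, lies on the minus strand of mm9 at chr8:124948671-124956840. Its log2 level was 8.49 and 8.54 in RANKL, 7.72 and 6.79 in ENRI, and 7.82 and 8.07 in WENRC. Both RANKL values were above all others, and the 2 ENRI libraries were the furthest apart. The log2 difference was 1.26 ± 0.31 (SE, n = 2 in each culture) for RANKL over ENRI, 0.57 ± 0.31 for RANKL over WENRC and 0.69 ± 0.31 for WENRC over ENRI. The difference from ENRI was called with all 6 libraries and was not called from the 4 RANKL and ENRI libraries alone, where it was again 1.26. It was also not called without RANKL 1 (1.29), RANKL 2 (1.24), WENRC 1 (1.26) or WENRC 2 (1.26). The difference from WENRC was not called with all 6 libraries, and was called from the 4 RANKL and WENRC libraries alone, without either ENRI library (0.57 in each case), and in the authors' deposited table (0.71). WENRC over ENRI was called without ENRI 1, at 1.15. The neighbour Mvd, 656 bp from Cyba on the same strand, was higher in RANKL than in ENRI by 0.66 and was called there.

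Noxo1 and Noxa1, the organizer and activator that work with Nox1, had lower means in RANKL than in both other cultures, where Ncf4 and Cyba had higher ones. Noxo1 (NM_027988, mm9 chr17:24833179-24837474, plus strand) had log2 levels of 8.08 and 8.13 in RANKL, 8.52 and 8.04 in ENRI, and 8.72 and 8.52 in WENRC. RANKL lay within the ENRI range at its lower end and below both WENRC libraries. Noxa1 (NM_172204, mm9 chr2:24941190-24950725, minus strand) had 8.66 and 8.66 in RANKL, 8.83 and 8.95 in ENRI, and 9.09 and 9.12 in WENRC. Its 3 cultures did not overlap and ran WENRC, ENRI, RANKL from high to low. For RANKL over WENRC the log2 difference was -0.52 ± 0.20 (SE, n = 2 in each culture) for Noxo1 and -0.44 ± 0.13 for Noxa1. For RANKL over ENRI it was -0.17 ± 0.20 for Noxo1 and -0.23 ± 0.13 for Noxa1, and for WENRC over ENRI it was 0.34 ± 0.20 and 0.21 ± 0.13. None of the 6 differences was called. Against WENRC both genes were called without ENRI 1, without ENRI 2, from the 4 libraries alone (-0.52 and -0.44 in each case) and in the authors' deposited table (-0.67 and -0.55), and Noxa1 also after recentring on the upper quartile (-0.56). Noxo1 in WENRC over ENRI was called without ENRI 1, at 0.59.

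Strand handling was not stated, so reads of overlapping or adjoining genes cannot be told apart from these values. Noxa1 overlaps the 3′ end of Entpd8 on the other strand, and Noxo1 has Gfer 78 bp and Tbl3 124 bp away, both on the other strand. Entpd8, Gfer and Tbl3 were called in none of the 3 comparisons. Per kb of gene, Noxo1 was the highest of the 6 subunit genes tested in every culture, at percentiles 92.0 in RANKL, 92.3 in ENRI and 95.4 in WENRC of tested genes. Noxa1 followed in ENRI and WENRC at 87.3 and 91.8, and Cyba followed in RANKL at 86.6, against 62.5 for Cyba in ENRI. Ncf1 stayed between 20.4 and 24.6.

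Duox2 and Duoxa2 are transcribed away from each other from start sites 735 bp apart on mm9, with Duox2 (NM_177610) at chr2:122106173-122123901 on the minus strand and Duoxa2 (NM_025777) at chr2:122124636-122128621 on the plus strand. Duox2 had log2 levels of 3.81 and 3.73 in RANKL, 4.86 and 3.54 in ENRI, and 3.60 and 4.36 in WENRC. Duoxa2 had 2.53 and 2.46 in RANKL, 3.02 and 2.59 in ENRI, and 2.56 and 2.78 in WENRC. In both genes ENRI 1 was the highest library and WENRC 2 the second highest, and the cultures overlapped except that the Duoxa2 values in RANKL lay below all others. Within mouse 1, Duox2 was lower in WENRC than in ENRI by 1.26 and Duoxa2 by 0.47 (log2 differences of -1.26 and -0.47), and within mouse 2 both were higher in WENRC, by 0.81 and 0.19. The mean log2 differences of Duox2 were -0.44 ± 0.47 (SE, n = 2 in each culture) for RANKL over ENRI, -0.21 ± 0.47 for RANKL over WENRC and -0.22 ± 0.47 for WENRC over ENRI. None was called with all 6 libraries. RANKL over ENRI was called lower without ENRI 2, at -1.10, and each difference turned sign when another library was left out: to 0.23 without ENRI 1, to 0.17 without WENRC 2, and to 0.44 without ENRI 1 or 0.15 without WENRC 1. At this level Duox2 ranked at percentiles 12.4 to 14.3 per kb.

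Of the 6 subunit genes tested, 2 were called higher in RANKL than in ENRI and 0 lower, against 20.9% of all tested genes called (10.4% higher and 10.5% lower). In RANKL over WENRC, 1 was called higher and 0 lower, against 12.1% of tested genes (8.53% higher and 3.62% lower). In WENRC over ENRI none was called by limma or in the authors' deposited table, against 14.6% of tested genes called by limma (4.85% higher and 9.74% lower). None had an unadjusted limma p under 0.05 on the values as deposited. After recentring on the upper quartile 4 of the 6 did, and with the mouse term 1 did, and none was called in either fit. The authors' deposited table called 2 of the 6 in RANKL over ENRI, where it called 19.6% of tested genes, and 4, Ncf4 and Cyba higher and Noxa1 and Noxo1 lower, in RANKL over WENRC, where it called 27.8%. The libraries of the cultures compared did not overlap for 4 of the 6 genes in RANKL over ENRI, where 64.7% of tested genes did not, for 5 in RANKL over WENRC (68.6%) and for 4 in WENRC over ENRI (58.5%). The median log2 difference of the 6 was 0.22, -0.001 and 0.35 in these 3 comparisons, and that of all tested genes was -0.005, -0.007 and -0.014. Since the same contrasts chose the genes, nothing is read from these counts. Over all genes, 70.2% of the calls in RANKL over WENRC and 33.2% of those in WENRC over ENRI were higher, and 53.3% and 54.1% were after recentring on the upper quartile. The number of subunit genes called moved when a library was left out, and so did the number over all tested genes. Both are given in the closing section. Ncf4 over WENRC was 5.33 without RANKL 1 and 5.36 without RANKL 2.

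The genes whose values over the 6 libraries, each centred on its own mean, lay closest to Ncf4 by Euclidean distance were Erv3 (0.30), Trabd2b (0.57), Gp2 (0.78), Itgb8 (0.79) and Art2a-ps (1.03). Gp2 is the M cell surface receptor for bacterial FimH and one of the M cell markers above. The measure keeps the size of the RANKL step, and Ncf4 was picked with these values in view. The likeness to Gp2 is thus no separate support for Ncf4 as an M cell gene. Erv3 had a mean log2 level of 8.32 in RANKL, 2.62 in ENRI and 2.78 in WENRC, close to the 3 Ncf4 means of 8.38, 2.69 and 3.03. The genes closest to Duox2 by the same measure were Amotl2 (0.27), Mdm2 (0.39), Palmd (0.40), Trp53inp1 (0.41) and Dgkh (0.42), and Mdm2 and Trp53inp1 are known targets of the transcription factor p53. The likeness to Duox2 is over 6 libraries whose highest value is ENRI 1, and a link to p53 was not tested.

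Among the other NADPH oxidase genes, 13 of a list of 13 were in the table and 11 were tested, with Cybb and Duoxa1 under the filter. This list too was made with earlier results of these data known, so the adjusted p-values given for its genes are descriptive. In RANKL over ENRI 3 of the 11 rose and 1 fell, where 20.9% of all tested genes were called. With the mouse term 3 rose and 3 fell, where 2445 and 2304 of the 16563 tested genes did. In RANKL over WENRC 3 rose and none fell, where 12.1% were called, and the authors' deposited table held 1 more, Sh3pxd2b, as lower (-0.65). In WENRC over ENRI none was called by limma or by the authors' deposited table, with 1 at an unadjusted limma p under 0.05, and 3 with the mouse term. The medians of the 11 were -0.16, -0.10 and -0.09. Nox1, Rac2 and Sh3pxd2a were the 3 that rose in both RANKL comparisons. The number of the 11 that limma called also moved when a library was left out, as did the number over all tested genes. Both are given in the closing section.

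Nox1, the catalytic subunit that Noxo1, Noxa1 and Cyba serve, had log2 levels of 7.91 and 7.89 in RANKL, 5.68 and 6.07 in ENRI, and 6.46 and 6.38 in WENRC. RANKL stood above the other 4 libraries with no overlap. The log2 difference was 2.03 ± 0.20 (SE, n = 2 in each culture) over ENRI (limma adjusted p = 0.00347) and 1.48 ± 0.20 over WENRC (limma adjusted p = 0.00983). It was not called over ENRI without RANKL 1 (2.02) or RANKL 2 (2.04), nor over WENRC without RANKL 1 (1.48), RANKL 2 (1.49), WENRC 1 (1.53) or WENRC 2 (1.44). In the fits without a RANKL library, few genes of the whole table were called over ENRI and none over WENRC. The 3′ end of Nox1 overlaps Cstf2 on the other strand, and Cstf2 rose by 0.96 in RANKL over ENRI.

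Rac2, the Rac GTPase best known from blood cells, had log2 levels of 7.42 and 7.27 in RANKL, 3.43 and 3.56 in ENRI, and 3.35 and 4.37 in WENRC. The RANKL libraries were again the 2 highest, well clear of the other 4. The log2 difference was 3.85 ± 0.34 (SE, n = 2 in each culture) over ENRI (limma adjusted p = 0.00293) and 3.49 ± 0.34 over WENRC (limma adjusted p = 0.00461). Rac1, its widely expressed relative, was at 9.79 and 9.87 in RANKL, 10.08 and 9.90 in ENRI, and 9.74 and 9.51 in WENRC, and was called in no comparison. Rac2 lies 296589 bp from Ncf4 on the same chromosome. Its neighbour Sstr3, 14824 bp away on the same strand, was called higher in RANKL over ENRI (1.10) and over WENRC (0.81). On the other side Cyth4, 24264 bp away, was under the filter.

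Sh3pxd2a (Tks5) is a scaffold of podosomes that shares the PX and SH3 domain layout of the oxidase organizers and is known to work with Nox enzymes. It had log2 levels of 11.79 and 11.84 in RANKL, 7.83 and 7.98 in ENRI, and 6.55 and 7.87 in WENRC. Its difference was 3.91 ± 0.40 (SE, n = 2 in each culture) over ENRI (limma adjusted p = 0.00379) and 4.60 ± 0.40 over WENRC (limma adjusted p = 0.00325). Without RANKL 1 or RANKL 2, the Rac2 difference was 3.77 and 3.93 over ENRI and 3.41 and 3.56 over WENRC. That of Sh3pxd2a was 3.94, 3.88, 4.63 and 4.58 in the same order. Neither gene was called in these fits, where few genes of the whole table were called over ENRI and none over WENRC. Cybc1, the chaperone of the Cybb and Cyba pair, listed as BC017643, was the 1 gene that fell, by 0.68 ± 0.18 in RANKL over ENRI (limma adjusted p = 0.0439). It was not called from the 4 libraries alone (adjusted p = 0.0942), with no filter on low values (0.0533), in the authors' deposited table (0.111), or without RANKL 1 (-0.52), RANKL 2 (-0.85), ENRI 2 (-0.59), WENRC 1 (-0.68) or WENRC 2 (-0.68).

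**Figure D2:**
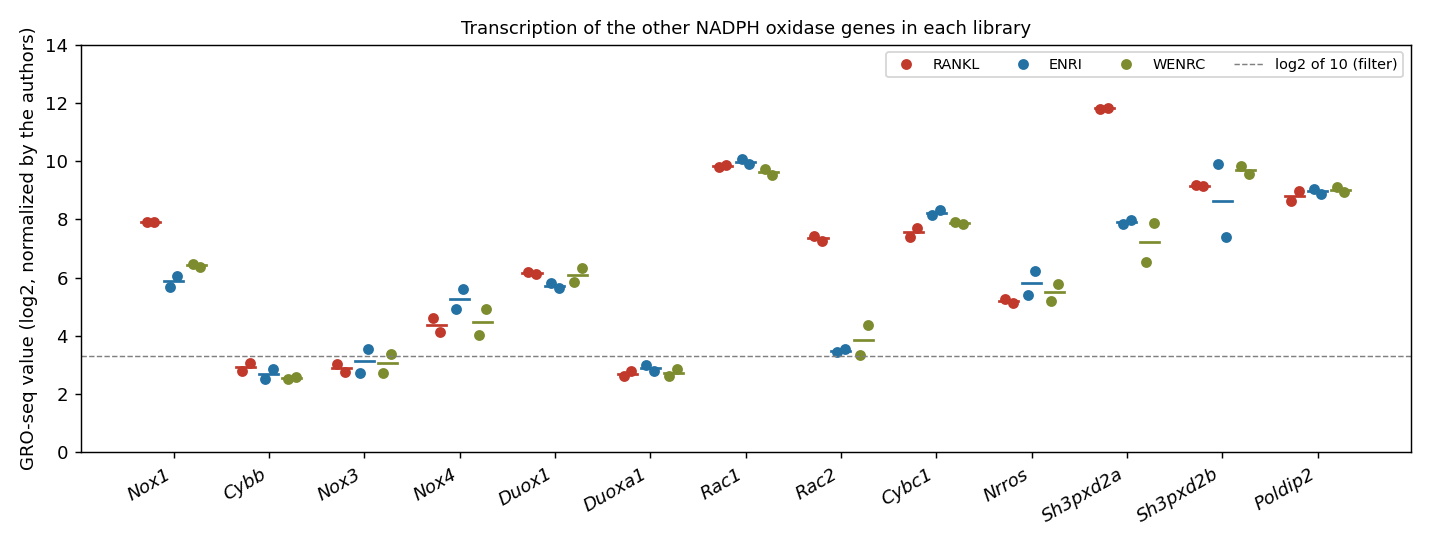
GRO-seq value (log2, normalized by the authors) of the 13 other NADPH oxidase genes in each library, with 1 point a library, a bar at the mean of each culture and a dashed line at 3.322, the filter. Nox1, Rac2 and Sh3pxd2a show 2 RANKL points clear above the other 4, while Cybb stays at 2.51 to 3.08 in all 6 libraries.

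The catalytic subunits other than Nox1 gave no called difference. Cybb, the catalytic subunit of phagocytes, was at 2.79 and 3.08 in RANKL, 2.51 and 2.86 in ENRI, and 2.53 and 2.61 in WENRC, under the filter in all 6 libraries. Nox4, an oxidase that needs Cyba but no cytosolic subunit, was at 4.61 and 4.12 in RANKL, 4.94 and 5.60 in ENRI, and 4.02 and 4.91 in WENRC. Duox1, the other Duox oxidase, was at 6.21 and 6.13 in RANKL, 5.80 and 5.64 in ENRI, and 5.86 and 6.33 in WENRC. Nox4 and Duox1 were called in no comparison, although Nox4 in RANKL over ENRI (-0.90 ± 0.39 SE, limma adjusted p = 0.154) was called with the same mouse term for the ENRI and WENRC libraries (-0.90, adjusted p = 0.0305) and without ENRI 1 (-1.23, adjusted p = 0.0422).

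**Figure D3:**
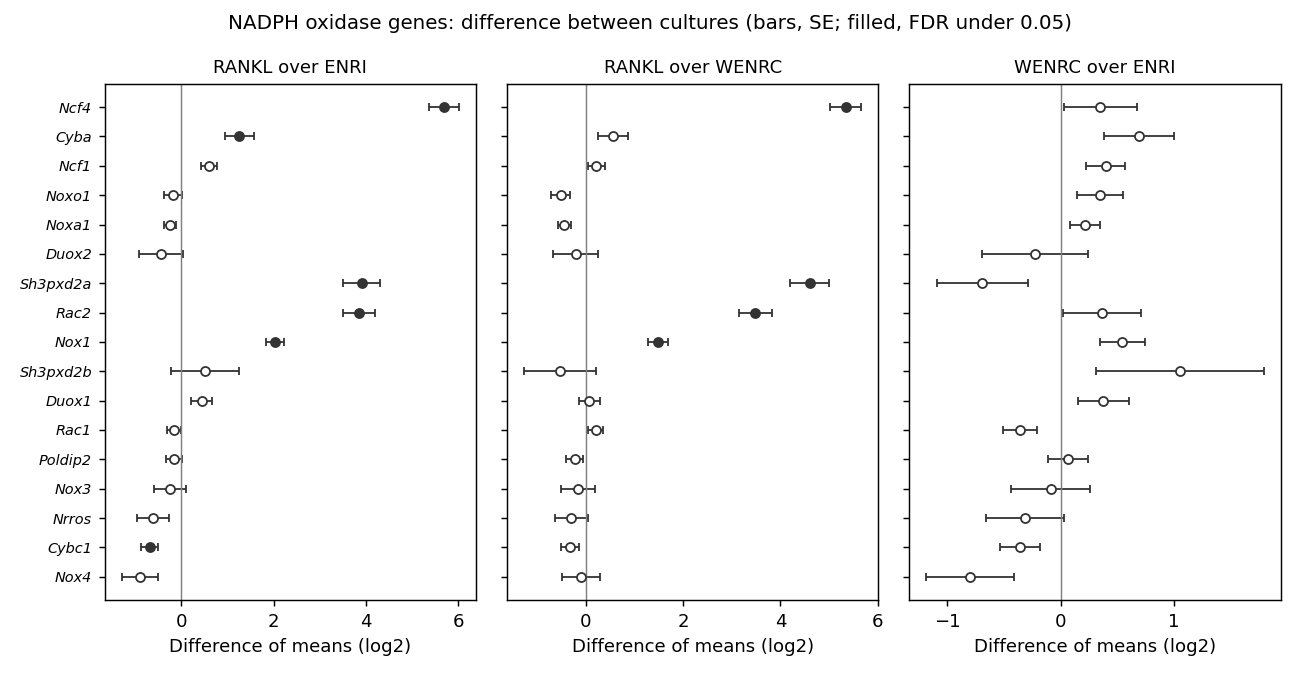
Difference of culture means (log2 scale, horizontal axes differ between panels) for the tested NADPH oxidase genes in RANKL over ENRI, RANKL over WENRC and WENRC over ENRI, with bars for the SE and filled points for genes called at an adjusted p under 0.05. Ncf4 leads both RANKL panels at 5.69 and 5.34, followed by Sh3pxd2a, Rac2 and Nox1, and no point is filled in WENRC over ENRI.

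Markers of leukocytes, the cells known for the phagocyte oxidase, are given beside Ncf4 and Rac2. Of 15 leukocyte genes, 8 were tested and none was called in either RANKL comparison by limma, with 0 and 1 at an unadjusted p under 0.05. Of these 8 the authors' deposited table called 0 over ENRI and 1 over WENRC, lower in RANKL. Of the 8, 4 had a higher mean in RANKL than in ENRI and 3 a higher mean than in WENRC, Itgam by the most (0.58 and 0.57). The other 7, Spi1, Laptm5, Itgax, Cx3cr1, Mpo, Ly6g and Cd3e, were under the filter. Of these the authors' deposited table held Cd3e, a T cell receptor subunit, as higher in RANKL than in ENRI (log2 change 7.19, adjusted p = 0.00757), at levels of 2.95 and 3.07 in RANKL, 2.42 and 2.43 in ENRI, and 2.46 and 2.63 in WENRC. The summed level of all 15, as the linear value behind the log2 scale, was 659 to 724 in RANKL, 628 to 676 in ENRI and 787 to 817 in WENRC. Such a sum weighs the highest genes most, here Cd68, Csf1r and Fcer1g, and low values are drawn together on this scale. It is therefore no measure of leukocyte content, which was not tested. The same sum over the 8 M cell markers was 10240 to 10817 in RANKL, 938 to 1647 in ENRI and 1748 to 1775 in WENRC.

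Of the parts of the Nox1 enzyme, Cyba and Nox1 had higher means in RANKL than in both other cultures. Noxa1, like Noxo1, had a lower mean, and limma called neither in any comparison on the values as deposited with all 6 libraries. The 250 bases before the gene start are shown for Cyba, Nox1 and Noxa1, from RefSeq on GRCm38.p6. They run 5′ to 3′ along the gene's own strand, the minus strand for all 3, from chr8:122432941-122433190 for Cyba, chrX:134111855-134112104 for Nox1 and chr2:25095206-25095455 for Noxa1. Capitals mark GAGGAA, the core of the sites bound by Spi-B and PU.1, searched on both strands. Spi-B is the factor needed for M cell maturation, and its gene Spib was 1 of the 8 M cell markers.
Cyba: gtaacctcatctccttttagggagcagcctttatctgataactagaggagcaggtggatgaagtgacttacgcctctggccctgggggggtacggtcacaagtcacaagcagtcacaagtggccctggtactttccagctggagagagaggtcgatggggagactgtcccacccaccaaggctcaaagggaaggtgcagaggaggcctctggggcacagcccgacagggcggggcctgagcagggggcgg
Nox1: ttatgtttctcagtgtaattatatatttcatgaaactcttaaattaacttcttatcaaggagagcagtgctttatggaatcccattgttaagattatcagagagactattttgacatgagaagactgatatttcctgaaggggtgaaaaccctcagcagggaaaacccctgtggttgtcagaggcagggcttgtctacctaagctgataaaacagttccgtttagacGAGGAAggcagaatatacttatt
Noxa1: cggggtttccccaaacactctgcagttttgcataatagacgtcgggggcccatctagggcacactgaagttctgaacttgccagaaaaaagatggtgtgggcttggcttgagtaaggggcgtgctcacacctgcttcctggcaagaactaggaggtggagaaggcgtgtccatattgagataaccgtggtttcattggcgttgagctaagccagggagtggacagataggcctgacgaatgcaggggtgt
The motif was in the Nox1 window once, on the plus sense of the gene, 23 bases before the start, and in none of the 6 subunit promoters that RefSeq listed, all but that of Ncf4, while 23.3% of 32851 promoters of the same length held it. A match is a description and not a bound site. The windows differed in composition: G and C made up 60.0% of the Cyba bases, 38.0% in Nox1, 53.2% in Noxa1 and 80.0% in Noxo1, against a median of 52.4% over all promoters. CpG pairs numbered 6, 2, 8 and 37 in that order, against a median of 6. Duoxa2 had 56.4% with 15 CpG pairs, Duox2 52.8% with 6, and Ncf1 54.4% with 2.

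Of the 11 differential H3K27me3 regions named for the 7 genes, 7 were named for Ncf4, and they pointed both ways. A region is called RANKL-higher or WENRC-higher by the culture with more tags in the authors' deposited tables, where the smallest fold was 2. WENRC tags were scaled by the authors to the RANKL depth. At the Ncf4 start, the region at mm9 chr15:78073647-78074275, centred 1280 bp upstream, had 9 tags in RANKL and 29.7 scaled tags in WENRC, a fold of 3.30. The region at chr15:78075623-78076809 in intron 1, centred 975 bp downstream, had 15 and 45 (fold 3). Both were thus lower in RANKL, the culture in which Ncf4 was transcribed most.

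The other 5 Ncf4 regions were higher in RANKL. Upstream, chr15:78054571-78057576 had 162 tags in RANKL and 47.7 scaled tags in WENRC (fold 3.40), centred 19168 bp from the start. The 3 regions between it and the start had 22 and 8.1 tags (fold 2.72), 40 and 13.5 (fold 2.96), and 22 and 2.7 (fold 8.15), the last centred 12689 bp upstream. Inside the gene, chr15:78081053-78082816 in intron 3 had 70 and 22.5 (fold 3.11), centred 6693 bp downstream. Of the RANKL-higher regions named for Ncf4, then, 4 lay upstream and 1 inside the gene. Within 50 kb of the Ncf4 start on either side the tables held 21 regions, 16 RANKL-higher and 5 WENRC-higher. Of the RANKL-higher ones 14 lay upstream of the start and 10 of these were nearest to Pvalb, a calcium-buffer gene that was under the filter at a mean log2 level of 0.97 in RANKL and 1.09 in ENRI. Downstream of the gene, 3 WENRC-higher regions and 1 RANKL-higher region were nearest to Mir7676-2.

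**Figure D4:**
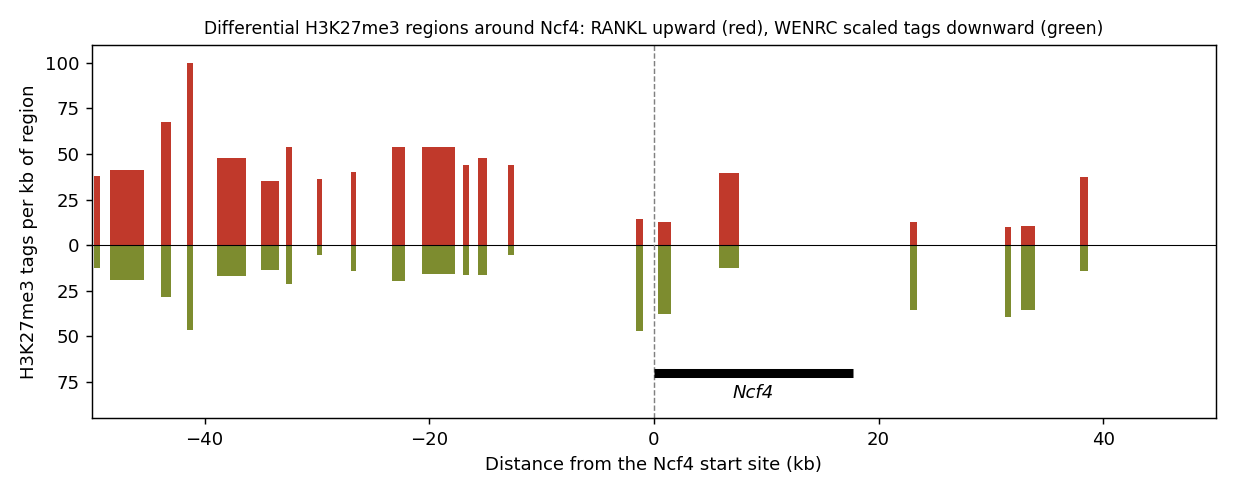
H3K27me3 tags per kb of region (RANKL upward, WENRC scaled tags downward) for the 21 differential regions within 50 kb of the Ncf4 start, against distance from that start in kb, with the gene as a black bar. The 2 regions beside the start have more tags per kb in WENRC (47.3 and 37.9, against 14.3 and 12.6 in RANKL), and the 14 upstream RANKL-higher regions have more in RANKL.

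Such regions were common in these tables: 32.3% of tested genes had at least 1 RANKL-higher region by nearest-gene name, 23.3% at least 1 WENRC-higher region and 14.5% both. For a WENRC-higher region no more than 5 kb from the start the share was 5.01% of tested genes, and 2.70% together with a RANKL-higher region at any distance, as at Ncf4. A RANKL-higher region within 5 kb was listed for 18.0%.

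Duox2 and Ncf1 each had 2 WENRC-higher regions inside the gene and no RANKL-higher region. In Duox2 they were chr2:122115974-122116739 at exon 17, with 8 tags in RANKL and 32.4 scaled tags in WENRC (fold 4.05), and chr2:122118514-122119014 in intron 11, with 1 and 20.7 (fold 20.71). The second rests on a single RANKL tag. In Ncf1 they were chr5:134696511-134697011 in the 3′ UTR, with 8 and 21.6 (fold 2.70), and chr5:134697831-134698331 in intron 9, with 15 and 32.4 (fold 2.16). The lower mark in RANKL at Duox2 went with no called difference in its transcription. No region was listed for Cyba, Noxa1, Noxo1 or Duoxa2. Among the other oxidase genes that rose in RANKL, by nearest-gene name, Sh3pxd2a had 8 WENRC-higher and no RANKL-higher regions (12 and 2 by overlap with the gene or the 5 kb around it), Nox1 had 2 RANKL-higher regions, centred 4688 and 12228 bp upstream, and Rac2 had none. The longest Sh3pxd2a region, chr19:47534928-47540150, covered 5222 bp at the gene start with 81 tags in RANKL and 285.4 scaled tags in WENRC (fold 3.52).

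Genes that make, remove or sense the oxidase products were followed in a list of 33, of which 31 were tested and Lpo and Mpo were under the filter. Earlier results of these data were known when the list was made, so adjusted p-values of its genes are descriptive. In RANKL over ENRI 2 of the 31 rose and 12 fell, where 10.4% and 10.5% of all tested genes did, with a median log2 difference of -0.59 against -0.005 for all tested genes. In RANKL over WENRC 3 rose and 3 fell (median -0.21), where 12.1% of all tested genes were called, and in WENRC over ENRI 0 rose and 9 fell (median -0.33), where 14.6% were. Enterocyte markers also differed: their median log2 difference was -1.004 in RANKL over ENRI and -3.43 in WENRC over ENRI, and their summed linear level was 24405 to 27099 in RANKL, 43213 to 73116 in ENRI and 3080 to 6923 in WENRC. Their part in the redox counts was not tested. The authors' deposited table called 16, 13 and 10 of them.

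Gpx3, the secreted glutathione peroxidase, was the 1 redox gene that rose in both RANKL comparisons. Its log2 level was 9.76 and 9.70 in RANKL, 8.08 and 7.84 in ENRI, and 7.77 and 7.54 in WENRC, and it rose by 1.77 over ENRI (limma adjusted p = 0.00315) and by 2.08 over WENRC (limma adjusted p = 0.00242). Without RANKL 1 it was 1.74 and 2.04 and without RANKL 2 1.80 and 2.11. It was called in neither case, where few genes of the whole table were called over ENRI and none over WENRC. Prdx3, the mitochondrial peroxiredoxin, rose by 1.09 over ENRI. Prdx1, a cytosolic peroxiredoxin that reduces hydrogen peroxide, fell in both, by 1.23 over ENRI (limma adjusted p = 0.00344) and by 1.03 over WENRC (limma adjusted p = 0.00715). Its 2 RANKL libraries were at 9.24 and 9.23, below 10.47 and 10.46 in ENRI and 10.30 and 10.23 in WENRC. Gpx2, the gastrointestinal glutathione peroxidase, was at 6.90 and 7.26 in RANKL, 8.49 and 7.69 in ENRI, and 8.99 and 8.97 in WENRC, and fell by 1.90 over WENRC (limma adjusted p = 0.0139).

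The genes that fell in RANKL over ENRI held Nfe2l2, a transcription factor of the oxidant response (-1.41), the quinone reductase Nqo1 (-2.12), the glutathione synthesis subunit Gclm (-1.16), the thioredoxin Txn1 (-1.21) and its reductase Txnrd1 (-0.83). Srxn1 (-0.59), Gsr (-0.41), Hmox1 (-0.30) and Gclc (0.41), which serve the same oxidant response, were not called in this comparison. With all 6 libraries Gsr was called lower in RANKL over WENRC (-0.83), and Srxn1 (-1.10) and Gclc (-0.90) in WENRC over ENRI. The genes that fell in RANKL over ENRI also held Sod1 (-0.89), which turns superoxide into peroxide, and the peroxidases Gpx1 (-0.84), Gpx4 (-1.38) and Prdx6 (-1.19). The peroxide-passing channel Aqp3 (-2.87) and the xanthine oxidoreductase Xdh (-1.42) were among them too. Gpx4, Txn1, Gclm, Nfe2l2, Aqp3 and Xdh were among the 9 that fell in WENRC over ENRI as well, with Aqp3 at -3.47, Xdh at -2.90 and Cat, the peroxisomal catalase, at -2.37. Both comparisons share the ENRI libraries. Aqp3 was at 3.98 and 3.96 in RANKL, 6.36 and 7.33 in ENRI, and 3.38 and 3.37 in WENRC, so ENRI was the high culture. Xdh fell over ENRI and rose by 1.48 over WENRC, and Gclc, of glutathione synthesis, rose by 1.31 over WENRC.

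**Figure D5:**
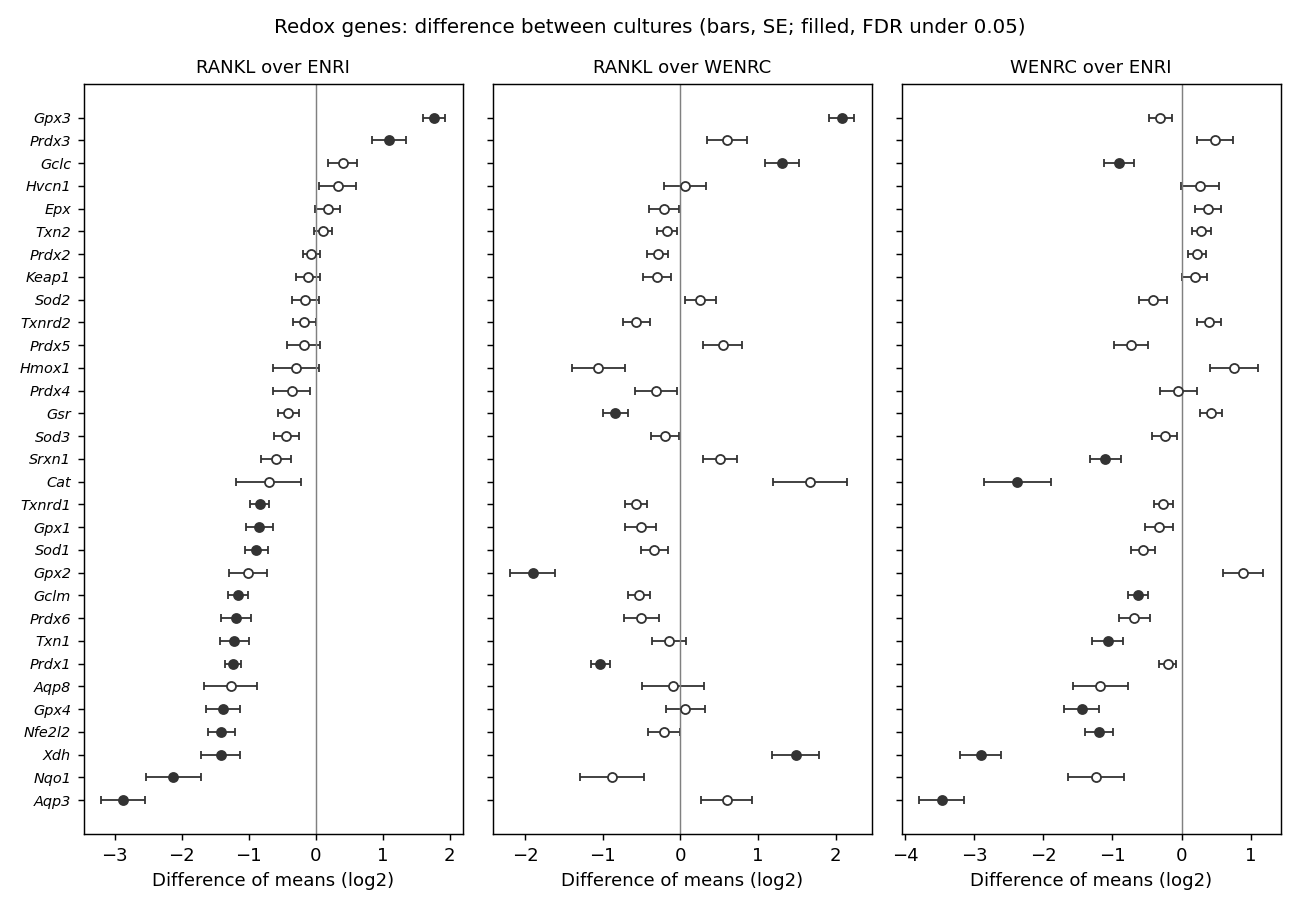
Difference of culture means (log2 scale, horizontal axes differ between panels) for the 31 tested redox genes in the 3 comparisons, with bars for the SE and filled points for genes called at an adjusted p under 0.05. Filled points lie to the left in RANKL over ENRI (12 of 14) and in WENRC over ENRI (9 of 9), and Gpx3 is filled on the right in both RANKL panels.

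The redox counts moved with the libraries in the fit, and so did the counts over all tested genes. Both are given in the closing section. In WENRC over ENRI the redox count was 0 from the 4 libraries of those cultures alone. There limma called no gene of the table (4074 had an unadjusted p under 0.05).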

How the data were processed

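The members and gene lists were chosen with earlier results of these data known. Per the file headers, the authors summed GRO-seq reads over whole RefSeq genes on mm9 with HOMER and deposited log2 values, normalized between libraries, with log2 changes and p-values for each pair of cultures. The transform behind the log2 values is not named. Bowtie2 2.3.4.1, HOMER and DESeq2 are named in the submitters' processing notes, and read filters and strand handling are not given in the sources used here. H3K27me3 regions were called by HOMER with 1 culture against the other, per the file headers. Those deposited tables give tag counts for the 2 pooled RANKL libraries, WENRC tags as a scaled signal, the fold between them and the caller's p-value.

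From the log2 values, limma 3.58.1 (R 4.3.3) fitted 3 culture means with a variance trend, 2-sided, for 16563 genes with at least 2 of 6 libraries at or above log2 of 10. Another 2131 genes, listed at 0 in all 6 libraries, are among those left out. The fit was also run on simulated data with independent noise in each library. Those data lacked the shared mice and the unequal spread of the cultures, so they cannot check the calls here. The authors' log2 changes were turned in sign to first-named minus second-named culture. Every subunit gene was named, as were the genes of the other oxidase list and the redox list that were called, Nox1, Cybb, Nox4 and Duox1 always, the 5 closest genes to Ncf4 and to Duox2, and neighbouring genes. Rac1, Sh3pxd2b, Hmox1, Cd3e, Itgam, Cd68, Csf1r, Fcer1g, the Duox2 and Duoxa2 mouse differences and the Pvalb regions were singled out after their values were seen. ENRI and WENRC libraries of 1 mouse number come from 1 animal, and their deviations from the culture means correlated across tested genes (r = 0.41, where genes are not independent replicates). Separate cultures are not stated for the RANKL libraries, so the p-values measure only the spread between these libraries. Some genes of the lists are not reported here and were left out of the list counts.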

Additional observations from a re-analysis of the deposited data

How the results depend on the processing

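Counts of genes called by limma moved with the libraries in the fit, and the cause was not tested. From only the 4 libraries compared, subunit genes called were 1 in RANKL over ENRI and 4 in RANKL over WENRC, redox genes were 15 in RANKL over WENRC and 0 in WENRC over ENRI, and all genes were 1925, 5194 and 0 in RANKL over ENRI, RANKL over WENRC and WENRC over ENRI, against 3464, 2012 and 2416 with all 6. The authors' deposited table called 4 subunit genes, 13 redox genes and 4604 genes in all in RANKL over WENRC, and upper-quartile recentring gave 2 subunit genes there. Leaving out each library in turn gave, in RANKL over ENRI, RANKL over WENRC and WENRC over ENRI, 1 to 3, 0 to 4 and 0 to 2 subunit genes, 0 to 7, 0 to 4 and 0 to 1 other oxidase genes, 0 to 19, 0 to 15 and 0 to 16 redox genes, and 64 to 6966, 0 to 5176 and 0 to 6650 genes in all; a lone library is assumed to vary like the other cultures.

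Differences of tested genes turned sign in 10 cases, none called with all 6 libraries or after the turn, and the cause was not tested; Duoxa2, which was not tested, turned in WENRC over ENRI from -0.14 to 0.08 without ENRI 1. Leaving out each library in turn, the log2 difference ran, for WENRC over ENRI, from -0.0879 (without WENRC 2) to 0.783 for Ncf4 and from -0.886 to 0.438 (without ENRI 1; 0.153 without WENRC 1) for Duox2. For RANKL over ENRI it ran from -0.415 to 0.0692 (without ENRI 1) for Noxo1 and from -1.098 to 0.226 (without ENRI 1) for Duox2. For RANKL over WENRC it ran from -0.589 to 0.165 (without WENRC 2) for Duox2, from -0.544 to 0.346 (without WENRC 2; 0.146 without RANKL 2) for Nox4, and from -0.161 (without WENRC 1) to 0.310 for Duox1, which was -0.0407 after upper-quartile recentring. With the mouse number of the ENRI and WENRC libraries as a replicate block and no block effect for RANKL, Ncf1 was called in RANKL over ENRI at 0.61 and Nox4 at -0.90. Upper-quartile recentring moved the median of all genes in RANKL over WENRC from -0.007 to -0.12, and the higher share of calls from 70.2% to 53.3%; in WENRC over ENRI that share went from 33.2% to 54.1% (51.8% with quantile normalization). Under these scalings no subunit gene turned sign. Member regions of H3K27me3 at a fold of at least 4 numbered 1 RANKL-higher and 2 WENRC-higher, and 1 RANKL-higher region of the 5 overlapped its gene or the 5 kb around it. Read depth is unknown, and tags below 10 in 1 of the cultures limit the folds of Duox2, Ncf1 and Ncf4 regions, among them the one upstream of the Ncf4 start and the 8.15-fold one.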
